A study of Mus musculus with 278 samples.

Results

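The mitochondrial ribosomal protein genes are the nuclear genes for the proteins of the ribosome inside mitochondria. They were taken by symbol, as all genes of the expression table whose name starts with Mrpl (large subunit) or Mrps (small subunit) followed by a number. This gave 77 of the 14145 genes in the table, 49 of the large and 28 of the small subunit by symbol, although the proteins of Mrps18a and Mrps30 are known from structures to sit in the large subunit. All 77 passed the filter on low values, which kept 12355 genes. Mrps36 was not analysed here.

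Mitochondria keep a small genome that encodes core subunits of the respiratory chain, and these are translated on ribosomes of their own. The RNA of these ribosomes is transcribed in the mitochondrion, whereas their proteins are made in the cytosol and imported. The genes are expressed in nearly all cell types, and NRF1 and the ETS factor GABP are known regulators of many nuclear genes for mitochondrial proteins.

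The study asked how mouse keratinocytes respond to neighbouring cells in which beta-catenin, the effector of the Wnt pathway, is switched on. Wild-type keratinocytes from adult dorsal skin were grown with K14ΔNβ-cateninER keratinocytes at 9:1. The transgenic cells carry stabilised beta-catenin fused to a tamoxifen-responsive oestrogen receptor domain under the keratin 14 promoter, and were not told apart from wild-type cells here. The paper found transgenic cells by reads of the transgene and left them out. The sets here may still hold such cells, in treated sets with beta-catenin switched on directly. Treated wells received 200 nM 4-hydroxy-tamoxifen (4OHT) and untreated wells the solvent DMSO, both for 24 h, before single cells were captured and their RNA sequenced.

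The 270 cells analysed form 4 library sets. The AG series (named after the titles) holds 66 untreated and 64 treated cells, and the GHA501A series 71 untreated and 69 treated cells. All 4 sets came from such mixed cultures. The labels do not say what AG and GHA501A stand for. Whether a set comes from 1 culture or more is not stated. Values are TPM (transcripts of a gene per 1000000 transcripts), which correct for gene length and sum to the same total in every cell, so the depth of a cell is unknown. A gene was called detected in a cell at TPM over 1.

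All cells are labelled keratinocytes, and keratinocyte markers were high in AG cells but low or at 0 in most GHA501A cells. Of 11 keratinocyte markers in the table, 10 were detected in at least 50% of the cells of both AG sets, but 1 in untreated and 5 in treated GHA501A cells. Their summed level ran from 707 to 33676 TPM in AG cells and from 0 to 22760 TPM in GHA501A cells, with set medians of 10231, 10194, 13.04 and 46.3 TPM. Krt14, the basal keratin, had medians of 4864 and 4997 TPM in the AG sets but 2.25 and 10.1 TPM in the GHA501A sets. Itgb4, an integrin of basal keratinocytes, was listed at 0 in every AG cell. The median of Krt5 in untreated GHA501A cells and the medians of Krt15 in both GHA501A sets were 0 TPM. Of 8 fibroblast markers, 6 were detected in at least 50% of the cells of both GHA501A sets and 1 in each AG set. Their summed level ran from 13.6 to 21162 TPM in GHA501A cells and from 0.727 to 721 TPM in AG cells, and the median of Col1a1 was 1123 and 909 TPM against 0 in both AG sets. Cells with Krt14 but not Col1a1 over 100 TPM numbered 64 of 66 and 59 of 64 in AG, and 8 of 71 and 10 of 69 in GHA501A. Over all cells of the sets, series and cell type therefore cannot be told apart. Every difference between the series below is a difference between these libraries. The few GHA501A cells with Krt14 over 100 TPM are also described apart below. Summed markers of other cell types had set medians of 45.2, 35.3, 7.75 and 11.9 TPM for 3 melanocyte genes, 24.0, 31.3, 91.2 and 25.4 TPM for 2 immune genes (highest cell 54196 TPM, GHA501A treated) and 0 for 2 endothelial genes.

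The promoters of the members are shown first, because known regulators of mitochondrial genes bind short letter motifs that can be looked for there. RefSeq promoter windows (250 bases before to 50 after the start, GRCm38.p6) matched 68 members, with 74 windows. The letters CCGGAAG, the core bound by ETS factors such as GABP, stood on either strand in 26 of the 74 windows (35.1%), against 16.7% of 11997 windows of the genes tested. AAGATGGC, a YY1 core, stood in 12 windows (16.2% against 4.25%), and GCGCATGC, the NRF1 core, in 8 (10.8% against 5.04%). CACGTG, the E-box bound by Myc, stood in 7 (9.46% against 9.62%). Over all 32851 windows of the RefSeq table the shares were 8.86% for ETS, 2.75% for YY1, 2.71% for NRF1 and 7.15% for the E-box. The ETS letters end and the YY1 letters begin with AAG, so that 1 stretch can hold both, and the NRF1 core can be read on both strands of 1 stretch. At least 1 of the 4 stood in 42 windows (56.8%), against 30.7% of the windows of the genes tested and 19.1% of all windows. The share was close to the 56.5% of 69 windows of cytosolic ribosomal protein genes and the 50% of 66 windows of nuclear oxidative phosphorylation genes. A match is a description of letters and not of binding.

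The windows of the 2 most highly expressed members with the NRF1 core, Mrpl32 (minus strand, chr13:14612988-14613287) and Mrpl22 (plus strand, chr11:58171414-58171713), and of the most highly expressed matched member with none of the 4 motifs, Mrpl28 (plus strand, chr17:26123253-26123552), read 5′ to 3′ as follows, with motif letters in capitals.
Mrpl32: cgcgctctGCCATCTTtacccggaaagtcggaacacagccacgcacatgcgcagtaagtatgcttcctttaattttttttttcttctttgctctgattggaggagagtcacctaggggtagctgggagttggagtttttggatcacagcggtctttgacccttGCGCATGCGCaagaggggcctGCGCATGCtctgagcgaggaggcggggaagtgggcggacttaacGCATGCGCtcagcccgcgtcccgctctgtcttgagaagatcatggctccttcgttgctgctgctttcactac
Mrpl22: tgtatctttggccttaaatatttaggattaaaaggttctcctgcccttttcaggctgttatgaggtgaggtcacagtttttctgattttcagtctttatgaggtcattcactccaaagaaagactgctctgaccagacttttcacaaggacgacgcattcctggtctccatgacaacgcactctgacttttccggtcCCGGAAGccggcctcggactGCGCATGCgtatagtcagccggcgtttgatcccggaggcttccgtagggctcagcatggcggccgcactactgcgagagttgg
Mrpl28: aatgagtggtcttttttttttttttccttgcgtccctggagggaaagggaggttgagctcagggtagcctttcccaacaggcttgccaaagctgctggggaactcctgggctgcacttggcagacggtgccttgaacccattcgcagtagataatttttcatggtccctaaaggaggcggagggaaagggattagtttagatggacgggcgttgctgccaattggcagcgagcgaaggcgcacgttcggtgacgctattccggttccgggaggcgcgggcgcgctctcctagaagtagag

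The Mrpl32 window held the NRF1 core in 3 separate places, 1 of them read on both strands, and a YY1 core near its 5′ end. The Mrpl22 window held 1 NRF1 core and 1 ETS core. The other members with the NRF1 core were Mrpl9, Mrpl10, Mrpl17, Mrpl33, Mrpl39 and Mrps18b.

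The members were expressed well above the typical gene and below the other ribosomal and mitochondrial genes. With the 4 sets weighted equally, the median member had a mean of 72.8 TPM, against 14.6 TPM for the median gene tested. The median was 689 TPM for 78 cytosolic ribosomal protein genes and 257 TPM for 75 nuclear oxidative phosphorylation genes. Summed per cell, the members took a median of 0.795% and 0.868% of all TPM in untreated and treated AG cells and 0.980% and 1.05% in untreated and treated GHA501A cells.

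Levels differed widely between members, although most of the proteins are thought to enter the ribosome in 1 copy. The large subunit genes had a median of 85.6 TPM and ranged from 6.48 to 1071 TPM, and the small subunit genes had a median of 48.5 TPM and ranged from 13.2 to 319.8 TPM. Members numbered like a bacterial ribosomal protein (up to 36 in the large and 21 in the small subunit, where numbering follows the bacterial names) did not stand apart in the large subunit, with a median of 84.3 TPM for 28 genes against 85.6 TPM for the 21 others. In the small subunit the medians were 72.96 TPM for 16 such genes and 39.4 TPM for the 12 others. Mean levels over 100 TPM were reached by 29 members, and 4 stayed under 20 TPM.

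Mrpl42, a subunit with no bacterial counterpart, was the highest member in every set. Its cells in AG untreated ran from 0 to 10464 TPM with a median of 588 TPM, and in AG treated from 0 to 4827 with a median of 876. In GHA501A they ran from 10.7 to 5148 TPM with a median of 1156 when untreated, and from 0 to 3782 with a median of 1351 when treated. The set means were 804, 949, 1269 and 1264 TPM, and this 1 gene supplied 9.98% to 12.9% of the summed level of all members. Its cells overlapped over nearly the whole range in the 4 sets.

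Mrpl28 followed with set means of 372, 439, 532 and 662 TPM (in the order AG untreated, AG treated, GHA501A untreated, GHA501A treated, used for all lists of 4 values). Mrpl18 had means of 266, 363, 385 and 456 TPM. Mrps16, the highest small subunit gene, had means of 234, 335, 323 and 388 TPM. These 3 were lowest in untreated AG cells. Mrpl32 had means of 325, 243, 334 and 309.7 TPM, and Mrpl22 of 316, 204, 306 and 320.0 TPM. In untreated AG cells the mean of Mrpl22 lay well above its median of 132.1 TPM, with a highest cell of 8227 TPM. Mrpl14 had means of 192.2, 274, 281 and 338 TPM, and Mrpl45, a large subunit protein at the exit of the nascent chain, of 249.99, 348.8, 222 and 219 TPM. The 4 means of Mrpl18, Mrps16, Mrpl32, Mrpl22, Mrpl14 and Mrpl45 overlapped, so that their order among themselves does not hold beyond the spread between sets.

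At the other end, Mrps5 had set means of 12.1, 12.5, 11.6 and 20.2 TPM and Mrpl3 of 18.5, 7.93, 9.96 and 10.4 TPM. Both are among the conserved ribosomal proteins, and both were still detected in 56.5% to 82.8% of the cells of each set. The other 2 of the lowest 4, Mrps2 and Mrpl48, were under 1 TPM in both AG sets and are described with the series.

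**Figure D1:**
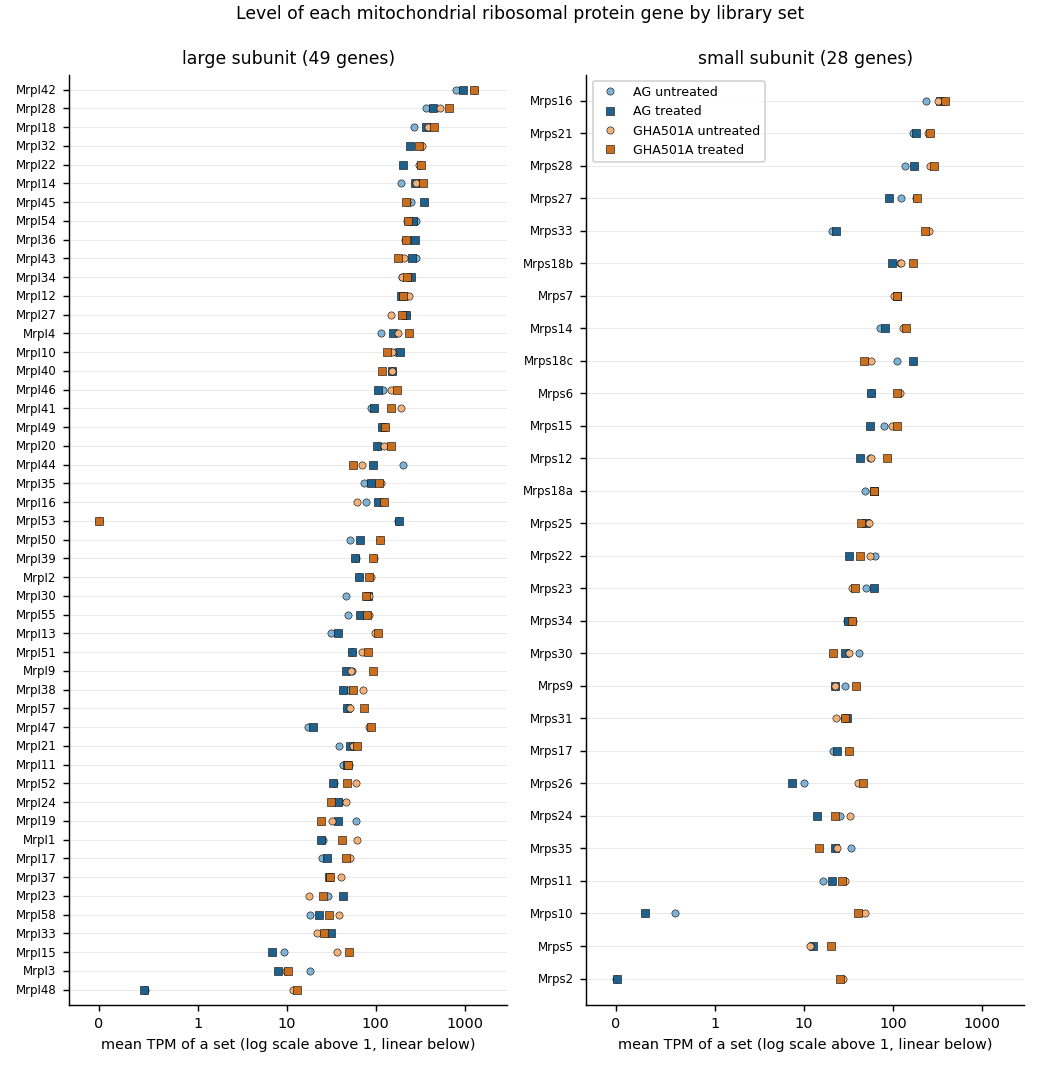
Mean TPM (log scale above 1) of each large subunit (left) and small subunit (right) gene in the 4 library sets, ordered by the mean of the sets; circles are untreated and squares treated cells, blue AG and orange GHA501A. Mrpl42 leads at 804 to 1269 TPM, while Mrpl53 is at 0 in both GHA501A sets and Mrps10, Mrps2 and Mrpl48 are under 1 TPM in both AG sets.

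Most members were found in most cells. In 70 of the 77 the gene was detected in at least 50% of the cells of every set, and in 8 in at least 90% of the cells of every set. The median member was detected in 80.3%, 89.1%, 92.96% and 88.4% of the cells of the 4 sets. Per cell, the lowest, median and highest number of members detected was 20, 68 and 74 in AG untreated, 17, 69 and 75 in AG treated, 49, 70 and 76 in GHA501A untreated, and 48, 67 and 76 in GHA501A treated. The medians lay close together, whereas the low end reached much further down in AG than in GHA501A.

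Between cells of a set the members varied less than the typical gene. The median coefficient of variation of TPM over cells was 1.21, 0.909, 1.03 and 1.20 for members, and 2.296, 1.94, 2.14 and 2.35 for all genes tested. Mrps33 (mean of the 4 sets 0.653), Mrpl27 (0.676) and Mrpl14 (0.714) varied least, and Mrps30 (2.38), Mrpl3 (2.03) and Mrps22 (2.02) most, among members with a value in all 4 sets. Mrps2, at 0 in untreated AG cells, had the highest value of any member in treated AG cells (8), where 1 cell held it. Genes of higher level have lower coefficients of variation in such data, and the 2 groups of genes differ in level.

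The number of members detected rose with the number of all other genes detected in the cell. The Spearman correlation over cells was 0.755 (n = 66) and 0.753 (n = 64) in the AG sets and 0.440 (n = 71) and 0.437 (n = 69) in the GHA501A sets. In cells with 5000 genes or more it was 0.579 and 0.656 in AG and 0.419 and 0.401 in GHA501A. Both counts come from the same library and share its unknown depth. In untreated AG cells, 22 cells with the fewest genes (median 4979 genes) had a median of 33.5 members, the middle 22 (6123.5 genes) 68 and the highest 22 (6592.5 genes) 71. In treated AG cells the medians were 64, 68 and 72 members at 5616, 6303 and 6840.5 genes. In GHA501A they were 67.5, 68 and 73 members in untreated cells at 5827.5, 6324 and 6748 genes, and 63, 69 and 71 in treated cells at 5372, 5950 and 6614 genes. The fall of the medians was steep in the lowest 22 untreated AG cells and shallow elsewhere. In treated AG cells the median hid a low group. The 21 treated AG cells with the fewest genes ran from 17 to 70 members, and 6 treated AG cells had 45 members or fewer. In GHA501A no cell had 45 members or fewer.

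In AG the members split the cells into a high and a low range. Of 130 cells, 22 had 45 members or fewer and all others 54 or more, with none from 46 to 53, bounds that were set after seeing the data. Of the 22, 16 were untreated (24.2% of that set) and 6 treated (9.38%). No GHA501A cell had 45 or fewer.

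**Figure D2:**
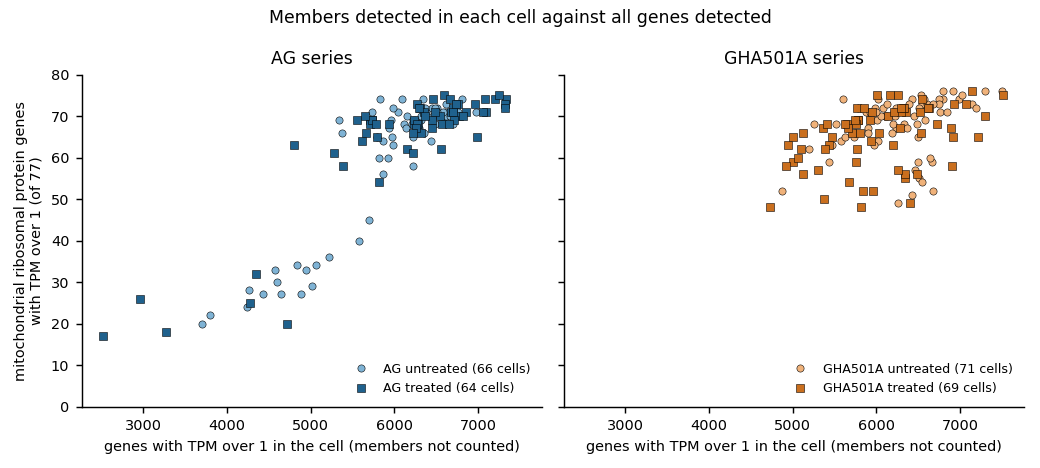
Number of the 77 members with TPM over 1 in each cell (vertical axis) against the number of all other genes with TPM over 1 (horizontal axis), for the AG (left) and GHA501A (right) series; each point is 1 cell, circles untreated and squares treated. A group of AG cells lies at 17 to 45 members, while GHA501A cells lie between 48 and 76.

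In cells with few genes, a larger share of the members than of all genes of like detection went undetected. Of the AG cells, 18 had fewer than 5000 genes detected (11 untreated, 7 treated; median 4419 genes), and the others had 5000 or more (median 6384.5 genes). The lowest, median and highest number of members detected was 17, 27 and 63 in the former and 29, 69 and 75 in the latter. Among genes detected in at least 80% of these others, the median gene tested (3901 genes) was still found in 72.2% of the 18 cells. The median was 33.3% for the 65 members in this class, 55.6% for 68 oxidative phosphorylation genes and 94.4% for 71 cytosolic ribosomal protein genes. Under 20% was the share for 11 of the 65 members (16.9%), for 3.69% of all 3901 genes and for none of the cytosolic ribosomal protein genes. These shares are descriptions over cells of 2 libraries, with no test. The summed member level fell less than the count, with a median of 5345 TPM (1265 to 14073) in the 18 cells and 8537 TPM (3023 to 12825) in the others. The 3 GHA501A cells with fewer than 5000 genes kept 48, 52 and 58 members.

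In the low cells the median of Krt5 was 1456 TPM against 1491 TPM in the other AG cells, that of Krt14 2632 against 5316 TPM, and that of Krt10, a keratin of differentiating cells, 0 against 20.7 TPM, with Col1a1 at a median of 0 in both. The single most abundant gene took a median of 60668 TPM in the low cells and 35472 TPM in the others. The part of depth, RNA quality and cell state in the loss was not tested.

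The loss did not fall evenly on the members. Mrpl35 and Mrpl40 were detected in all 18 low cells, and Mrpl9, Mrpl10, Mrpl19, Mrpl27 and Mrpl51 in 17 of 18 (94.4%). No other member exceeded 72.2%, reached by Mrpl33, Mrpl43 and Mrps25. All 7 are large subunit genes, as are 49 of the 77 members, and they were singled out after their values were seen. Among genes detected in at least 80% of the other AG cells, 10.8% of the members were found in at least 80% of the low cells. That share was 36.5% over all genes tested, 11.8% for oxidative phosphorylation genes and 83.1% for cytosolic ribosomal protein genes. Mrpl27 had a mean of 274 TPM in the low and 211 TPM in the other cells, Mrpl19 of 56.6 and 47.5, Mrpl9 of 78.3 and 45.6, and Mrpl40 of 162.9 and 151, so that the means of these 4 were higher in the low cells. Medians did not all follow, at 66.7 and 131.9 TPM for Mrpl40 and 32.6 TPM in both for Mrpl9. The means of Mrpl10 (96.1 and 188.1 TPM), Mrpl51 (27.3 and 58.3 TPM) and Mrpl35 (63.3 and 84.4 TPM) were lower in the low cells. High level did not secure detection: Mrpl28, the second highest member, was found in 27.8% of the low and 96.4% of the other cells, with means of 1054 and 439 TPM over the cells in which it was detected.

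**Figure D3:**
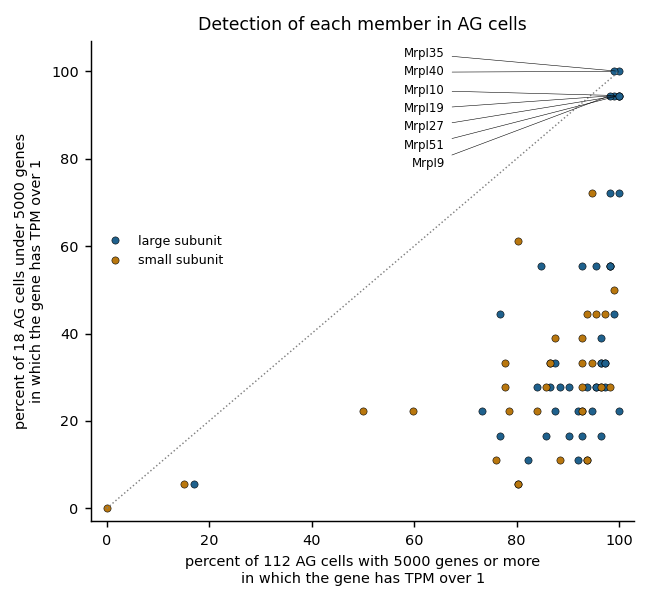
Percent of the 18 AG cells with fewer than 5000 genes (vertical axis) and of the AG cells with 5000 or more (horizontal axis) in which each member has TPM over 1; each point is 1 gene, blue large and ochre small subunit, and the dotted line marks equal shares. The 7 named large subunit genes lie at 94.4% or 100%, and all other members at 72.2% or below.

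Members were also compared with each other over the cells of a set. The median Spearman correlation over all pairs was 0.243 and 0.161 in the AG sets and 0.0964 and 0.109 in the GHA501A sets, against 0.0154, 0.0292, 0.0094 and 0.0149 over all pairs of genes tested. Cytosolic ribosomal protein genes reached 0.422, 0.334, 0.196 and 0.287, and oxidative phosphorylation genes 0.273, 0.168, 0.0964 and 0.102. When the number of genes detected was held constant by partial correlation, the members' medians were 0.112, 0.0963, 0.0969 and 0.0987. The higher values of AG were thus not seen once genes detected was accounted for, and the 4 sets then lay within 0.0963 to 0.112. In cells with 5000 genes or more the medians were 0.123, 0.0682, 0.0942 and 0.108. These are weak correlations in sparse data over 64 to 71 cells that share library, depth and composition, and are given with no test.

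The single members followed the number of genes detected in AG more than in GHA501A. The median correlation was 0.387 and 0.277 in the AG sets and 0.0802 and 0.0919 in the GHA501A sets, against 0.131, 0.157, 0.113 and 0.132 over all genes tested. It was 0.386, 0.159, -0.0307 and -0.103 for cytosolic ribosomal protein genes and 0.350, 0.187, -0.0474 and -0.0533 for oxidative phosphorylation genes, so that these correlations too were higher in the AG sets. In cells with 5000 genes or more the members' median was 0.204, 0.136, 0.0595 and 0.0979. The summed member level had a correlation of 0.421, 0.369, 0.0649 and 0.1195 with the genes detected. The sums of the 2 subunits had a correlation with each other of 0.456, 0.517, 0.447 and 0.336.

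Mrps11, Mrpl12 and Mrpl58 moved most with the summed level of the other members. Only genes found in no fewer than 50% of cells were ranked. Their 4 correlations averaged 0.449, 0.426 and 0.390. Mrpl12 is a stalk protein that also binds the mitochondrial RNA polymerase, and Mrpl58 is a peptidyl-tRNA hydrolase built into the ribosome. Mrpl12 had set means of 224, 193.1, 239.6 and 200.2 TPM, Mrpl58 of 18.3, 23.1, 38.7 and 29.8 TPM, and Mrps11 of 16.4, 20.8, 29.02 and 26.6 TPM. The lowest correlations were those of Mrpl33 (-0.0329), Mrpl9 (-0.0067) and Mrpl19 (0.0391). These 3 are detected in nearly every cell, in 93.9% to 100% of the cells of each set, and Mrpl9 and Mrpl19 are among the 7 kept in the low AG cells. Mrpl33 had set means of 26.4, 31.1, 22.01 and 26.5 TPM.

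Mrpl46 and Mrps11 lie head to head on chromosome 7, with 12.2% of the exonic length of Mrpl46 inside Mrps11 on the other strand. Their correlation with each other was 0.428, 0.292, 0.374 and 0.261, and 0.271, 0.191, 0.367 and 0.261 with the number of genes detected held constant, above the median pair in each set. This pair was chosen for its position after values were seen. In 2 other neighbouring pairs the values with genes detected held constant were 0.186, 0.149, 0.432 and 0.339 (Mrpl47 with Ndufb5) and 0.167, 0.0309, 0.312 and 0.273 (Mrpl18 with Tcp1), the latter below the median pair in treated AG cells. The kit does not mark strand as far as stated, so that reads of the shared stretch cannot be assigned to either gene.

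Between the series, few members differed past the thresholds, and with 4 sets only large differences passed. Among members, the smallest log2 difference called was 1.55 (Mrpl13) and the largest not called was -1.39 (Mrps18c). The size of the called differences therefore reflects the fit and is not a trait of the members. Set levels, log2(mean TPM + 1), were compared with limma over the 4 sets with treatment as a covariate, and a gene was called at an adjusted p under 0.05 with an absolute difference over 0.5. Higher in GHA501A were 8 members (10.4%), against 18.2% of the 12355 genes tested, and 1 was lower (1.299%, against 10.8%). An unadjusted p under 0.05 was found for 14 members against 41.8% of all genes. The median difference, GHA501A minus AG, was 0.39 for members and 0.01 for all genes, and 55 of 77 lay above 0 (71.4% against 50.6%). It was 0.30 between untreated and 0.35 between treated sets, with -0.05 and 0.14 over all genes. For cytosolic ribosomal protein genes the median was -0.18 with 7 higher and 22 lower of 78, and for oxidative phosphorylation genes 0.23 with 4 higher and 1 lower of 75. Both GHA501A sets were above both AG sets for 43 members (55.8%, against 36.7% of all genes) and below them for 13 (16.9% against 32.9%).

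These counts and medians depended on how a set was summarised. With the mean of log2(TPM + 1) over cells, which weighs detection more, 13 members were higher and 7 lower and the median was 0.34. With that mean over cells of at least 5000 genes, a choice made after seeing the data, 11 were higher and 18 lower, and the members' median was -0.09, with -0.19 over all genes. The direction of the median member between the series is therefore not settled by these data. The 9 genes called in the first fit were called in both of these as well.

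Mrps10, a conserved small subunit protein, was nearly absent from AG and present in nearly all GHA501A cells. Its cells ran from 0 to 8.76 TPM with a median of 0 in AG untreated, and from 0 to 4.19 with a median of 0 in AG treated. In GHA501A they ran from 0 to 215 TPM with a median of 45.7 when untreated and from 0.235 to 184.3 with a median of 30.5 when treated. It was detected in 18.2% and 9.38% of AG cells and in 97.2% and 92.8% of GHA501A cells, and 79.3% of GHA501A cells lay above the highest AG cell. The set means of 0.596, 0.289, 48.6 and 40.98 TPM gave a log2 difference of 4.99 ± 0.33 (SE; limma, adjusted p = 0.0019). The gene lies at chr17:47368887-47381417 (GRCm38, plus strand).

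Mrps33 was present in both series and much higher in GHA501A. AG cells ran from 0 to 93.96 TPM with a median of 18.98 when untreated and from 0 to 70.6 with a median of 22.5 when treated. GHA501A cells ran from 6.81 to 527 TPM with a median of 263 when untreated and from 0 to 747 with a median of 218 when treated. Of the GHA501A cells, 120 of 140 (85.7%) lay above the highest AG cell. The set means of 20.8, 22.95, 256 and 229 TPM gave a log2 difference of 3.41 ± 0.33 (SE; limma, adjusted p = 0.0034). It lies at chr6:39801804-39810988 on the minus strand.

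Mrps2, a conserved small subunit protein, was listed at 0 in all but 1 of 130 AG cells, with 0.478 TPM in that cell. In GHA501A it was detected in 52.1% of untreated (95% Wilson interval 40.7 to 63.3) and 47.8% of treated cells (36.5 to 59.4), with means of 27.3 and 25.4 TPM. The limma fit called it higher (adjusted p = 0.0019), and no fold is given against a set at 0. Intervals of this kind cover the counting of cells only.

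Mrpl53, a large subunit protein with no bacterial counterpart, went the other way. Its cells ran from 0 to 1614 TPM with a median of 158.3 in AG untreated and from 0 to 631 with a median of 180.2 in AG treated. It was detected in 84.8% (74.3 to 91.6) and 92.2% (82.98 to 96.6) of these cells. In GHA501A it was listed at 0 in all 140 cells. The set means were 178 and 181.9 TPM in AG and 0 in GHA501A (limma, adjusted p = 0.0018). The gene lies at chr6:83109040-83109939 on the plus strand, and 87.97% of its exonic length is shared with exons of Gm42688 on the same strand, a gene that is not among the rows of the table. The annotation used for counting each series is not given in the sources used here, and its part in the listed 0 was not tested.

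Such near-complete differences were not particular to the members. A mean under 1 TPM in both AG sets and over 10 TPM in both GHA501A sets was found for 649 genes tested (5.25%) and for 3 members (3.90%), Mrps2, Mrps10 and Mrpl48. The reverse was found for 82 genes (0.664%) and for 1 member, Mrpl53. Mrpl53 was 1 of 34 genes at 0 in all GHA501A cells and detected in at least 50% of AG cells.

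Mrpl48 had AG cells from 0 to 6.25 TPM and set means of 0.471 and 0.455 TPM. In GHA501A its cells reached 77.5 and 92.2 TPM, with means of 11.9 and 13.1 TPM and a log2 difference of 3.203 ± 0.33 (limma, adjusted p = 0.0038). It has an annotated processed pseudogene (Mrpl48-ps), and reads that mapped to several places were discarded by the authors. The part of the pseudogene and of this discard in the difference was not tested. Mrpl15, a conserved large subunit protein, had set means of 9.29, 6.77, 36.5 and 50.1 TPM, with a log2 difference of 2.29 ± 0.38 (limma, adjusted p = 0.015). Mrps26, a subunit with no bacterial counterpart, had set means of 10.1, 7.38, 40.5 and 46.6 TPM and a log2 difference of 2.20 ± 0.36 (limma, adjusted p = 0.014). It was detected in 59.1% and 50% of AG cells and in every GHA501A cell. Mrpl47 (17.3, 19.6, 83.1 and 88.3 TPM) and Mrpl13 (31.4, 37.7, 99.3 and 106.4 TPM) completed the 8, with differences of 2.16 and 1.55 on the log2 scale (limma, adjusted p = 0.011 and 0.029), and were named after their values were seen. Of the exonic length of Mrpl47, 24.2% overlaps Ndufb5 and Actl6a on the other strand. The cells of Mrpl15, Mrps26, Mrpl47 and Mrpl13 overlapped between the series, with 2.14% to 18.6% of GHA501A cells above the highest AG cell.

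The 4 largest increases and Mrpl53 kept their call when any 1 set was left out. Without AG untreated, or without AG treated, Mrpl13, Mrpl15, Mrpl47 and Mrps26 lost theirs, leaving 4 members higher. Without GHA501A treated, Mrpl13, Mrpl15 and Mrps26 lost theirs, leaving 5, and without GHA501A untreated Mrpl13 did, leaving 7.

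The differences were also present in GHA501A cells with keratin. In GHA501A cells with Krt14 but not Col1a1 over 100 TPM (8 untreated, 10 treated), Mrpl53 was at 0 in all 18. Mrps10 had means of 46.9 and 30.7 TPM there and of 47.9 and 43.4 TPM in cells with Col1a1 but not Krt14 over 100 TPM (60 untreated, 49 treated). Mrps33 had 298 and 176.5 TPM against 254 and 256 TPM, and Mrpl47 113.7 and 126.6 against 80.2 and 77.6 TPM. In AG cells with Krt14 only, Mrps10 had 0.602 and 0.314 TPM and Mrps33 20.9 and 23.2 TPM. With only cells of Krt14 over 100 TPM in the fit (66, 63, 10 and 20 cells), 5 members were higher and 1 lower, and Mrpl13, Mrpl15 and Mrps26 were no longer called. Of the 18 cells, 1 lay within a factor of 2 of the bound for either gene.

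Among members below the thresholds, the 3 genes named Mrps18 are of interest as paralogs that occupy different sites of the ribosome. Mrps18c had set means of 111.2, 169.2, 56.1 and 47.5 TPM, a log2 difference of -1.39 ± 0.38 that missed the threshold (limma, adjusted p = 0.057). Both GHA501A sets lay below both AG sets. With a filter of TPM over 1 in at least 10% of cells or with cells of at least 5000 genes it was called (limma, adjusted p = 0.041 and 0.039). Mrps18a (48.95, 61.5, 60.3 and 61.5 TPM; difference 0.15) and Mrps18b (120.2, 98.8, 123 and 167.03 TPM; difference 0.39) overlapped between the series. Mrpl44, which carries an RNase III fold, had set means of 203, 92.6, 69.4 and 54.99 TPM (difference -1.14, limma, adjusted p = 0.089). It was detected in 83.3% and 76.6% of AG and 66.2% and 49.3% of GHA501A cells.

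**Figure D4:**
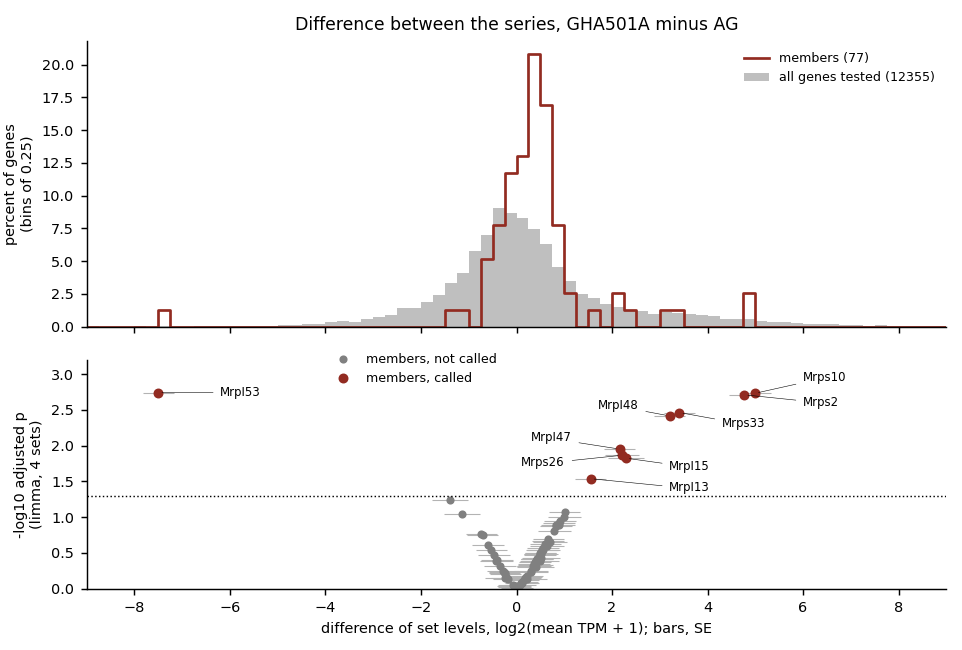
Top, share of all 12355 genes tested (grey) and of the 77 members (red line) by log2 difference, GHA501A minus AG, in bins of 0.25; bottom, each member's difference with its SE against -log10 of the limma adjusted p, the dotted line marking 0.05. Of the members, 55 lie above 0, with 8 called higher (red, right) and Mrpl53 called lower (red, left).

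The mean summed member level was higher in both GHA501A sets than in both AG sets. Set means per cell were 8048 ± 2519.7 and 8492 ± 2071 TPM in AG (SD over 66 and 64 cells) and 9844 ± 2228 and 10296 ± 2649 TPM in GHA501A (71 and 69 cells). The difference of the means was 1800.0 TPM (exact permutation test over the 4 sets, two-sided, p = 0.3333, the smallest that 2 against 2 allows). This difference was below the SD over cells of each set. Large subunit genes took 78.2% of the sum in both AG sets and 74.5% and 73.9% in the GHA501A sets, a difference of -4.002 percentage points (exact permutation p = 0.3333). The ranges of single cells overlapped in all 4 sets for both measures. Of the members called between the series, Mrpl53 (lower) and Mrpl13, Mrpl15, Mrpl47 and Mrpl48 (higher) count in the large subunit sum. Mrps2, Mrps10, Mrps26 and Mrps33, all higher in GHA501A, count in the small subunit sum. The part of these genes in the large subunit share was not tested.

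Other genes of mitochondrial translation were compared from lists chosen with earlier results of these data known. Of 6 tested ribosome proteins with other symbols, 1 was higher in GHA501A and none lower. This was Dap3, a GTP-binding small subunit protein, with set means of 0.644, 0.523, 33.3 and 33.7 TPM (difference 4.45 ± 0.33; limma, adjusted p = 0.0021). Ptcd3, an RNA-binding small subunit protein, had 62.2, 61.02, 79.6 and 83.7 TPM (difference 0.40).

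Of 29 translation and assembly factors tested, 5 were higher and none lower. Tufm, the elongation factor that brings tRNA to the ribosome, had 0, 0.0214, 67.5 and 147 TPM, and Trub2, a pseudouridine synthase, 0.0182, 0.0115, 11.02 and 21.3 TPM. Of 17 mitochondrial aminoacyl-tRNA synthetases, 3 were higher and 1 lower. Tars2 (0.113, 0.0278, 8.31 and 7.63 TPM) and Yars2 (0.154, 0.144, 11.4 and 5.67 TPM), which charge threonine and tyrosine tRNAs, were higher. Of 10 regulators of mitochondrial gene expression 1 was higher, Nrf1 (0.0245, 0.0577, 7.60 and 5.65 TPM; difference 2.86 ± 0.34; limma, adjusted p = 0.0057). Esrra, a nuclear receptor, had 21.8, 14.2, 35.99 and 40.4 TPM and was not called (limma, adjusted p = 0.099). In none of the 4 lists was the share called higher above the 18.2% of all genes. The mitochondrially encoded proteins were not analysed here.

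Treated and untreated cells were compared with the series as a block. The GHA501A sets also differed in their mix of cells. Both Krt14 and Col1a1 were over 100 TPM in 2 of 71 untreated and 10 of 69 treated cells, and Col1a1 but not Krt14 in 60 and 49. The part of this mix in the treatment differences was not tested. No member and no gene among the 12355 was called (0%), by limma. At an unadjusted p under 0.05 there were 459 genes (3.72%) and 0 members. The median difference of the members, treated minus untreated, was 0.05, with -0.00089 over all genes. It was 0.02 in AG and 0.03 in GHA501A, with 42 of 77 members above 0 in AG and 41 in GHA501A. Treated cells were above untreated cells in both series for 24 members (31.2%, against 23.5% of all genes) and below them in both for 18 (23.4% against 23.8%). The absence of calls does not show that levels were alike.

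The members that moved the same way in both series with the largest smaller difference are given as values. Mrpl23 had means of 29.3 and 42.5 TPM in untreated and treated AG cells and 17.7 and 25.5 TPM in GHA501A, differences of 0.52 and 0.50 on the log2 scale. Mrpl16 had 78.7 and 106.2 TPM in AG and 62.4 and 124 TPM in GHA501A (0.43 and 0.98). Mrpl4 had 114.8 and 158.4 TPM in AG and 178.5 and 235 TPM in GHA501A (0.46 and 0.40). All 3 are conserved large subunit proteins. In GHA501A the detection of Mrpl16 went against its mean, at 73.2% of untreated and 47.8% of treated cells, with medians of 12.0 and 0 TPM.

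In the other direction, Mrps35 had 33.7 and 22.4 TPM in untreated and treated AG cells and 23.5 and 14.9 TPM in GHA501A (-0.57 and -0.62). Mrps24 had 25.2 and 14.2 TPM in AG and 33.3 and 22.3 TPM in GHA501A (-0.79 and -0.56). Mrps30 had 42.1 and 29.1 TPM in AG and 32.4 and 21.1 TPM in GHA501A (-0.52 and -0.59), and was detected in 42.03% to 52.1% of the cells of each set. A difference over 0.5 in the same direction in both series was found for these 3 members alone (3.90%, against 7.18% of all genes). None of the 6 was called (limma, adjusted p = 0.998 for each), nor did any have an unadjusted p under 0.05.

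**Figure D5:**
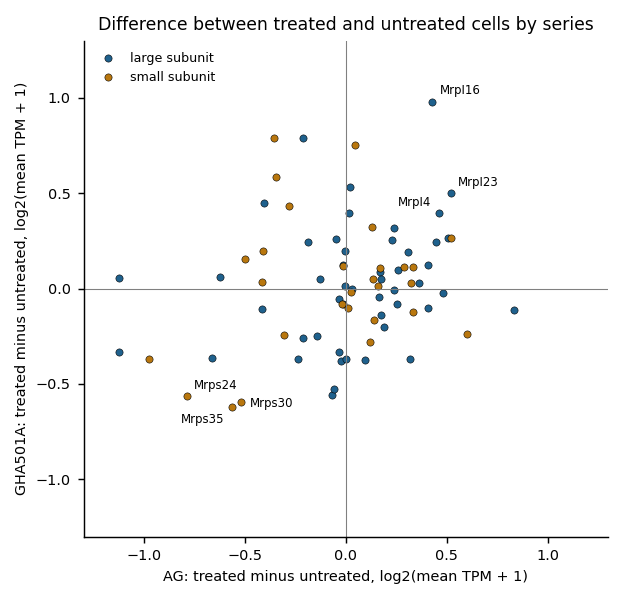
Difference between treated and untreated cells on the log2(mean TPM + 1) scale in AG (horizontal axis) and GHA501A (vertical axis), each point 1 member, blue large and ochre small subunit. The points scatter around 0 in all 4 quadrants, and the 6 named genes are those that moved the same way in both series by the largest smaller difference.

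Mean detection moved with treatment in opposite directions in the 2 series. The mean number of members detected was 59.3 ± 17.1 in untreated and 64.6 ± 14.2 in treated AG cells (SD over cells), and 68.0 ± 6.66 and 65.1 ± 7.33 in GHA501A, differences of 5.23 and -2.93 members. The mean number of other genes detected moved alike, by 234 genes in AG and by -272 in GHA501A. The median number of members detected was 68 and 69 in untreated and treated AG cells, and 70 and 67 in GHA501A. The AG means thus differed more than the typical cell. Of the AG cells with 45 members or fewer, 16 were untreated and 6 treated. With the mean of log2(TPM + 1) over cells the members' median treatment difference was 0.44 in AG and -0.20 in GHA501A, and 0.29 and -0.24 with cells of at least 5000 genes. The summed level was higher in treated cells by 444 TPM in AG and 452 TPM in GHA501A (exact sign-flip permutation test over 2 series, two-sided, p = 0.5, the smallest it allows), both within 1 SD of the cells of a set. The spread between sets, in limma pooled in part over all genes tested, is the only error behind these comparisons, and it may be technical.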

How the data were processed

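Single mouse keratinocytes were captured on a microfluidic C1 chip and sequenced from full-length cDNA (SMART-Seq v4). Per the labels and the paper, the authors aligned reads with TopHat to GRCm38, discarded reads that mapped to several places, counted with featureCounts and deposited TPM. Of 278 labelled cells, 8 whose title and treatment label disagree (5 labelled treated, 3 untreated) entered only as alternatives. A further 16 columns match no label and were not used.

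A gene was kept where over 5 cells had it above TPM 1. Cells are not replicates, so each of the 4 library sets was 1 sample. Set levels, log2(mean TPM + 1), were fitted with limma 3.58.1 in R 4.3.3 (moderated test, two-sided, Benjamini-Hochberg over all genes), with series as the block for treatment. Single values were tested by exact permutation over sets. Other steps used scipy 1.17.1 and pandas 2.3.3 in Python 3.11.15, with GENCODE M21 and RefSeq for annotation. The fit was tested on simulated data, with differences larger than those of most called members, so that differences of their size were not covered. Alternatives changed the summary of a set, pseudocount, filters, cells, model and detection threshold.

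Members and lists were chosen with earlier results of these data known. Named genes were the 8 highest and 4 lowest members, the largest differences in each comparison, 6 preset genes, the 3 most and least correlated members and 2 genes a list.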

Additional observations from a re-analysis of the deposited data

Results flagged for a closer look

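The mean number of members detected per cell differed between treated and untreated cells in opposite directions in the 2 series, by 5.23 members in AG and by -2.93 members in GHA501A. The medians were 68 untreated and 69 treated in AG, and 70 and 67 in GHA501A. With 1 set for each condition in each series, the difference between the series was not tested. The number of other genes detected moved in the same directions, by 234 and -272 genes.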

How the results depend on the processing

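For the series, 8 members were higher and 1 lower. With the mean of log2(TPM + 1) over cells, 13 were higher and 7 lower, and with that mean over cells of at least 5000 genes, chosen after seeing the data, 18 were lower. A filter of TPM over 1 in at least 10% of cells, cells of at least 5000 genes, or the series alone in the model each gave 2 lower, and cells with Krt14 over 100 TPM gave 5 higher. Leaving out 1 set gave 4 to 7 higher. The median difference of 0.39 was 0.34, 0.32 and -0.087 with the mean of logs, cells of at least 5000 genes, and these 2 together, and 0.29 to 0.46 without 1 set. The summed level differed by 1800.0 TPM, by 1850.4 with medians over cells, and by 1574 to 2026 without 1 set.

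No setting called a member for treatment. The median of 0.05 was 0.11 with the mean of logs, 0.025 in cells of at least 5000 genes, 0.019 with these 2 together, and -0.10 in cells with Krt14 over 100 TPM. It ran from -0.18 to 0.23 without 1 set. Without the series as a replicate block it was 0.05 with 0 members called, and 53 genes rather than 459 had an unadjusted p under 0.05. In AG alone, 0.019 became 0.44 with the mean of logs, 0.027 with a pseudocount of 0.1, 0.043 or 0.034 with the conflicting cells placed by label or by title, 0.012 in cells of at least 5000 genes, 0.041 in cells with Krt14, and 0.29 with the mean of logs over cells of at least 5000 genes. In GHA501A, 0.03 became -0.20 with the mean of logs, -0.32 in cells with Krt14, and -0.24 with the mean of logs over cells of at least 5000 genes.

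The median correlation with genes detected, averaged over the sets of a series, was 0.332 in AG, 0.510 by Pearson and 0.170 in cells of at least 5000 genes. In GHA501A it was 0.0861, and 0.110 by Pearson. Between members it was 0.202 in AG, 0.104 given genes detected, 0.294 by Pearson and 0.0957 in cells of at least 5000 genes, and 0.103 in GHA501A with 0.133 by Pearson. The causes of these changes were not tested. Of the values of named genes under alternatives, 543 stayed on the same side of the thresholds, among them uncalled values that changed sign, 15 passed the thresholds and 16 no longer did. Depth is unknown, and each condition rests on 2 sets.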
